A study of Homo sapiens with 2 samples.

Results

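The genes described here are named for proteins of the mitochondrial ribosome and were taken by symbol. Every row of the deposited tables named MRPL or MRPS with a number and at most one letter A, B or C was a member, and pseudogenes were left out. This gave 77 genes among 60619 in the table, 48 with an MRPL symbol and 29 with an MRPS symbol, on 21 chromosomes. All 77 lay above the filter on low counts (10 or more counts in 1 library and 1 or more CPM, the count scaled to library size, on average), which left 13304 genes. RNA sequencing was done on total RNA of HBEC-3KT, an immortalized line of human bronchial epithelial cells. Cells of the CBS library overexpressed human cystathionine beta synthase (CBS), the enzyme that opens the transsulfuration pathway, from the lentiviral vector pLenti6-hCBS, and cells of the empty-vector library received pLenti6 alone. Virus was left on both for 4 to 8 hours, blastocidin (the labels' spelling) was then applied at 10 µg/mL and cells were grown for 4 to 5 days on gelatin-coated plates. The comparison was set up to ask how CBS bears on Polycomb repressive complex 2.

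Each group held 1 library of 1 cell line, so the differences below lack a replicate check and conditions could not be tested. The libraries held 20785957 estimated counts for CBS and 20433062 for the empty vector. Folds divide CBS by empty vector after scaling by TMM, log2 folds carry a prior count of 5, and the exact 95% intervals (Clopper-Pearson) cover counting error only. Levels in bulk RNA are relative to all RNA of the library, so that fewer cells of a type and less RNA per cell cannot be told apart. CBS itself (ENSG00000160200) had 3669 counts in CBS cells and 280 in empty-vector cells, and together with its near-identical copy CBSL it was 12.1-fold higher (11.1 to 13.1). All 8 basal cell markers were measured, and they summed to 6899 CPM with CBS and 10715 CPM with the empty vector. Of these, KRT14, KRT15, KRT17, KRT5, ITGB4 and ITGA6 had an interval below a ratio of 1, NGFR had one above, and TP63 had one that held 1. Secretory, ciliated, fibroblast and endothelial markers each summed to under 14 CPM in both libraries, with SCGB3A1, FOXJ1, COL1A2, DCN and LUM at 0 counts in both. Immune markers summed to 39.6 CPM with CBS and 123.6 CPM with the empty vector, all from CD68 and CD14, with PTPRC and CD3E at 0. The part of these marker differences in the results below was not tested.

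Mitochondrial ribosomes translate the few messenger RNAs of the mitochondrial genome, all of which encode subunits of the oxidative phosphorylation complexes. Their proteins are encoded in the nucleus, made in the cytosol and imported, and they assemble on ribosomal RNAs made inside the organelle. Some have a counterpart in the bacterial ribosome and others are found only in mitochondria. In promoters of this family, sites for the ETS factor GABP, for NRF1 and for YY1 are well known.

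Promoter sequences, from 250 bases before to 50 after the RefSeq start, were on hand for 68 of the 77 genes. The promoters below belong to MRPL1, the member with the highest fold, to MRPL38 and MRPS23, both among the 8 highest and holding the searched motifs, and to MRPL41, the member with an interval below a ratio of 1. They lie at chr4:77862580-77862879 on the + strand, chr17:75904835-75905134 on the - strand, chr17:57849995-57850294 on the - strand and chr9:137551629-137551928 on the + strand of GRCh38.p14. Capitals mark the ETS core CCGGAAG and the YY1 core AAGATGGCG on either strand.
MRPL1: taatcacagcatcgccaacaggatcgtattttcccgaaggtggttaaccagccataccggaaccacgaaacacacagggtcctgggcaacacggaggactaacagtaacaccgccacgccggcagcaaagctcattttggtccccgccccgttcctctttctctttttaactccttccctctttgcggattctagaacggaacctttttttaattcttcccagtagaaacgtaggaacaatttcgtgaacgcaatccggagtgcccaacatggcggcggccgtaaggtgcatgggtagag
MRPL38: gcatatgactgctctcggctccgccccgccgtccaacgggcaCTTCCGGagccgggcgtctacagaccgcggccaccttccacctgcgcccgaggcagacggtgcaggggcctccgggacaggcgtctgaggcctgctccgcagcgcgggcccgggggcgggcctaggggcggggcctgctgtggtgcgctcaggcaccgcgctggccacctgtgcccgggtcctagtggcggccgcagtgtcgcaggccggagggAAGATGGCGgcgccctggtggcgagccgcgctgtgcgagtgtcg
MRPS23: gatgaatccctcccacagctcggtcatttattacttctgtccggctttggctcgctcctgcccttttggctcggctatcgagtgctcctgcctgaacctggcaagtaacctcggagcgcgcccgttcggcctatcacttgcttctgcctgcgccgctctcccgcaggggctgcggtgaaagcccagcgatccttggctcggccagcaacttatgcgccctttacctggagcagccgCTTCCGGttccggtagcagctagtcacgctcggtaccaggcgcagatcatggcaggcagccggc
MRPL41: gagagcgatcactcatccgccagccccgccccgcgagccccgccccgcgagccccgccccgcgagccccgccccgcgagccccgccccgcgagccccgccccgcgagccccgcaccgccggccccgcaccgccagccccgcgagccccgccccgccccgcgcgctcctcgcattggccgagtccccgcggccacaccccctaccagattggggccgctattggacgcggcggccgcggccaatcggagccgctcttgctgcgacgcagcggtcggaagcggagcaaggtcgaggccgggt

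The ETS core (CCGGAAG or its complement CTTCCGG) stood in 28 of the 68 member promoters, or 41.2%. It stood in 20.1% of the 9352 promoters of genes above the filter and in 10.7% of all 27305 promoters. The YY1 core (AAGATGGCG or CGCCATCTT) stood in 13 of the 68, or 19.1%, against 4.20% of promoters of genes above the filter and 1.85% of all promoters. It holds ATG, so it can overlap a start codon. The NRF1 core (GCGCATGCG or CGCATGCGC) was in 3 member promoters (4.41%, against 3.74% and 2.10% of the same promoter sets), and the E-box CACGTG in 6 (8.82%, against 10.1% and 7.43%). The cores were shortened after longer forms had been searched, so these strings were not fixed beforehand. They can overlap each other, and 4 members held both the ETS and the YY1 core. With position 0 at the first base of the 50 after the start, MRPL38 had its ETS core at -208 and its YY1 core at 6, and MRPS23 had its ETS core at -14. The windows of MRPL1 and MRPL41 held none of the searched cores in exact form. Near its end the MRPL1 window did hold AACATGGCG, which has C where the searched YY1 core AAGATGGCG has G. Near forms of this kind were not counted for any promoter, so a YY1-like site in MRPL1 is not excluded. The median log2 fold was 0.27 over the 28 promoters with an ETS core and 0.34 over the 40 without, and it was 0.26 over the 13 with a YY1 core and 0.34 over the 55 without. For the NRF1 core it was 0.39 over the 3 with and 0.32 over the 65 without, and for the E-box 0.39 over the 6 with and 0.32 over the 62 without. These differences were not tested.

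Transcripts of the mitochondrial ribosomal proteins were moderately more abundant in the CBS library across most of the family. An interval wholly above a ratio of 1 was found for 62 of the 77 genes (80.5%), while 31.6% of all 13304 genes had such an interval. For 1 gene it lay below 1, where the background was 31.1%, and for 14 it held 1. The median log2 fold of the members was 0.32, with quartiles of 0.20 and 0.44, beside a median of 0.00 and quartiles of -0.31 and 0.27 over all genes. Single folds were small. By the log2 fold with its prior count, 5 of the 77 members were at least 1.5-fold higher with an interval above 1. That share was no larger than the 7.02% of all genes. The 5 members were MRPL1, MRPL49, MRPL38, MRPS27 and MRPL21, and without the prior count MRPL33 also reached 1.5-fold, at 1.504. None was 1.5-fold lower (background 12.9%). In counts no member reached 2-fold in either direction, where 1.41% of all genes were higher and 5.28% lower.

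**Figure D1:**
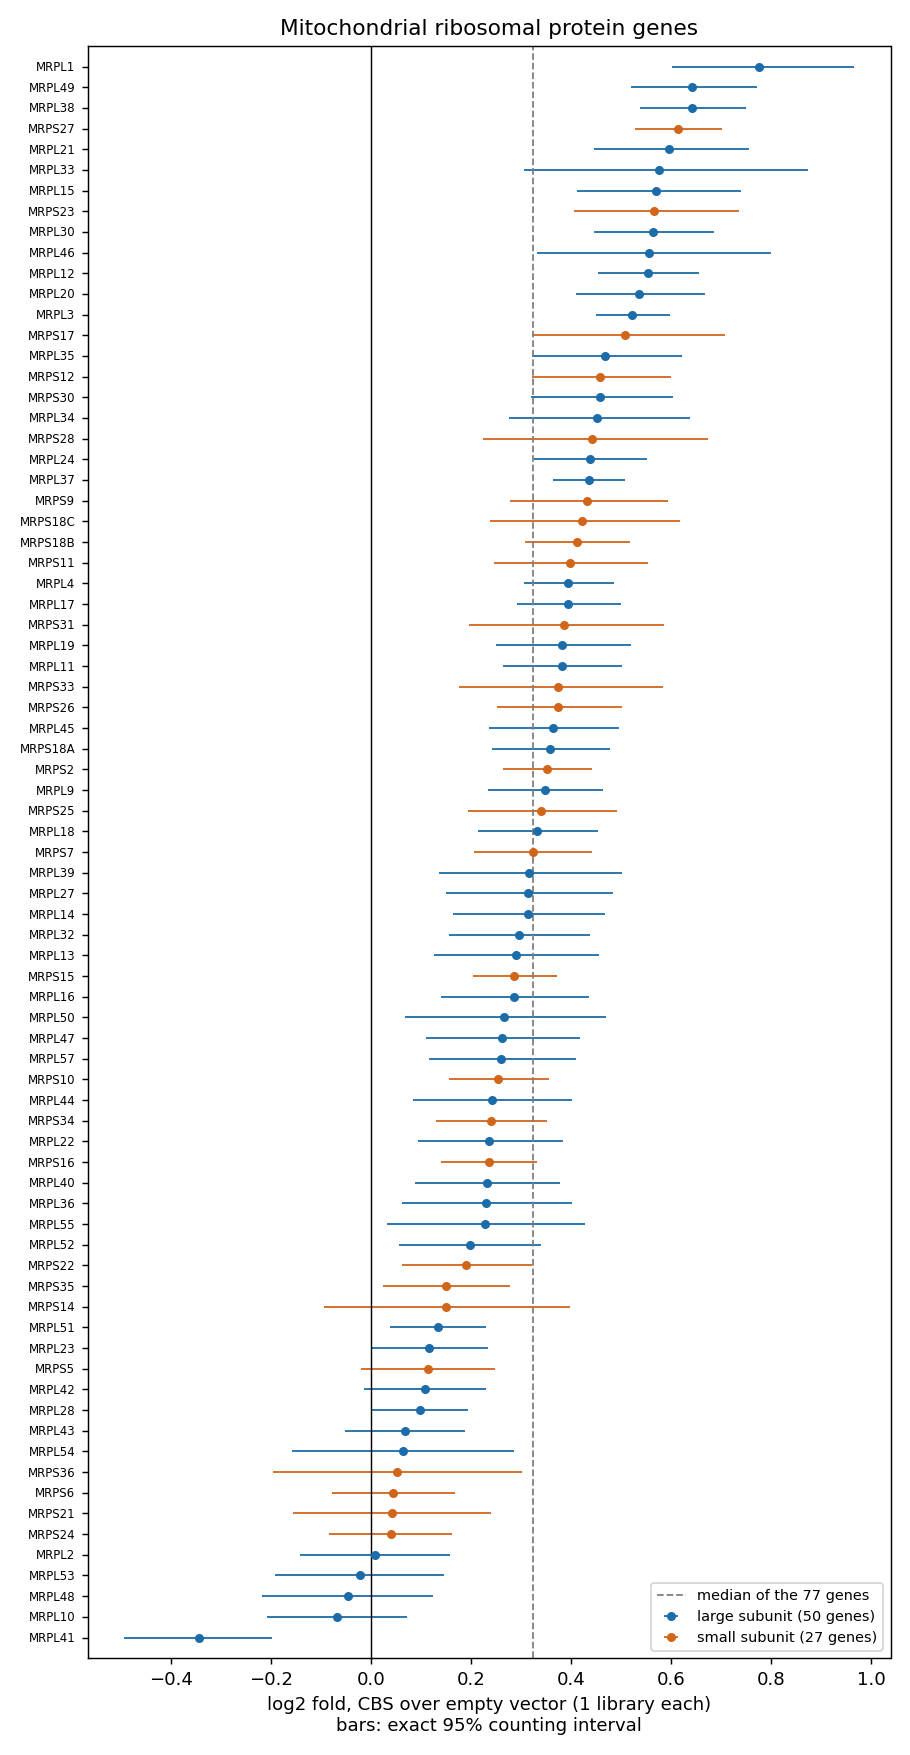
Log2 fold (CBS over empty vector, x axis) of each of the 77 genes (rows), with exact 95% counting intervals as bars, 1 library per group. Most intervals lie right of 0, the dashed median is at 0.32, and MRPL41 is the 1 gene whose interval lies left of 0.

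Summed over the family, 88332 counts were found in CBS cells and 65722 in empty-vector cells, a 1.26-fold higher level (1.24 to 1.27). In the authors' TPM values, which are scaled for transcript length and depth, the 77 genes made up 0.623% of the CBS library and 0.462% of the empty-vector library. The TPM of 75 genes was higher with CBS and that of 2, MRPL41 and MRPL55, was lower. TPM was not scaled by TMM, and in log2(TPM + 1) the median fold of all genes was itself 0.09. In counts the log2 fold was positive for 73 members and negative for 4, beside 50.2% positive over all genes. Levels spanned 9.91 to 220.1 TPM with CBS and 7.58 to 182.0 TPM with the empty vector, and their order across the 77 genes was similar in both (Spearman's rho 0.96, over genes that share the same libraries). The 5 highest in the CBS library were MRPL3, MRPL51, MRPS15, MRPL17 and MRPL37. MRPL3, a large-subunit protein with a bacterial counterpart, had 220.1 TPM with CBS and 139.8 TPM with the empty vector, and its log2 fold in counts was 0.52 (0.45 to 0.60). MRPL51, found only in mitochondria, had 216.8 TPM with CBS and 182.0 TPM with the empty vector, and a log2 fold of 0.13 (0.04 to 0.23). It shares 31.3% of its exon bases with NCAPD2 on the opposite strand. MRPL3 ranked above MRPL51 with CBS and below it with the empty vector. MRPL17 had 186.4 TPM with CBS and 134.3 TPM with the empty vector, and MRPL37 had 181.8 TPM with CBS and 124.0 TPM with the empty vector. Their log2 folds in counts were 0.39 (0.29 to 0.50) and 0.43 (0.36 to 0.51). Across the 77 genes the fold had a rho of -0.05 with TPM. The 3 least abundant in the CBS library were MRPS21, MRPS14 and MRPL50, and MRPL50 had 9.91 TPM with CBS and 7.58 TPM with the empty vector. MRPS14 had 19.2 TPM with CBS and 15.4 TPM with the empty vector, and MRPS21 had 22.9 TPM with CBS and 20.4 TPM with the empty vector.

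**Figure D2:**
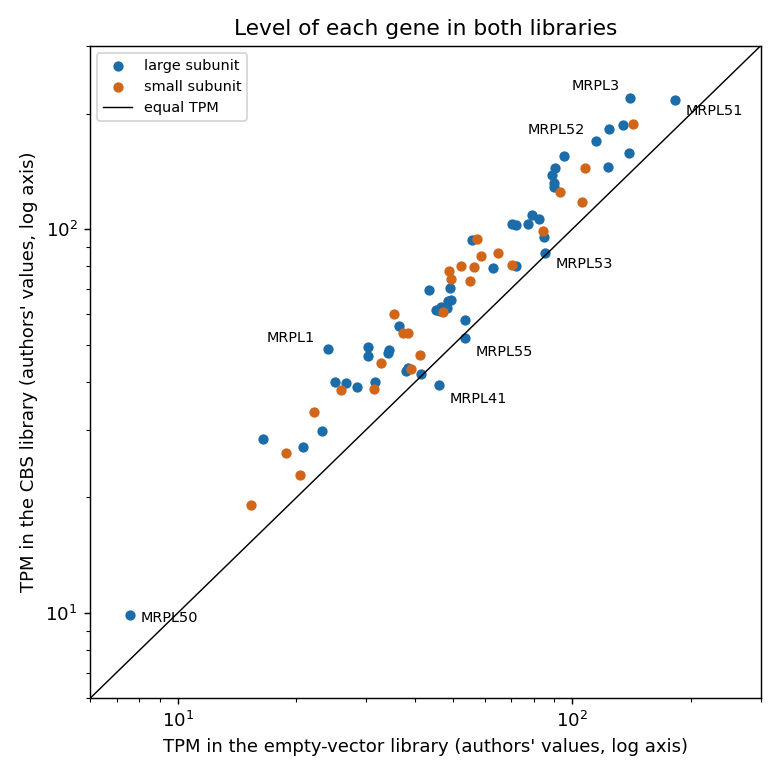
TPM of each gene in the CBS library (y axis) against the empty-vector library (x axis), both on log axes, 1 library each, with a line of equal TPM. Of the 77 genes, 75 lie above the line, and MRPL41 and MRPL55 lie below it. In log2(TPM + 1) the median fold of all genes above the filter was 0.09.

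Members of both subunits were mostly higher in the CBS library. By structural position or systematic name 50 members were placed in the large subunit, including MRPS30 and MRPS18A despite their symbols, and 27 in the small. MRPS36, since described in another complex, was counted in the small subunit and among those found only in mitochondria. The median log2 fold was 0.31 in the large and 0.34 in the small subunit, with 41 of 50 and 21 of 27 intervals above 1. Over all genes 31.6% of intervals lay above 1 and 31.1% below. The difference between the medians (large minus small) was -0.03 and was not tested, and it turned positive, at 0.02, in log2(TPM + 1) and at 0.05 once a trend on GC content and transcript length was taken out. Members with a bacterial counterpart had a median of 0.34 over 46 genes, with 38 intervals above 1 and none below. Those found only in mitochondria had a median of 0.26 over 31 genes, with 24 intervals above 1 and 1 below. In log2(TPM + 1) both medians were 0.43. In the large subunit the medians in counts were 0.36 with a bacterial counterpart and 0.25 without. In the small subunit the order was the other way, at 0.30 with a bacterial counterpart and 0.37 without. These differences were not tested.

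Within the large subunit the highest folds belonged to proteins of different parts of the ribosome. MRPL1, the counterpart of the bacterial protein that forms the mobile stalk where spent transfer RNA leaves, lies on chromosome 4 (77862520 to 77952790). It had 709 counts in CBS cells and 385 in empty-vector cells, a 1.72-fold higher level and a log2 fold of 0.78 (0.60 to 0.97). In TPM its level was 48.8 with CBS and 24.0 with the empty vector. MRPL38, found only in mitochondria (chromosome 17, 75898643 to 75905413), had 1924 counts in CBS cells and 1151 in empty-vector cells and a log2 fold of 0.64 (0.54 to 0.75). It shares 37.5% of its exon bases with ENSG00000267426 on the same strand, which had 0 counts in CBS cells and 52 in empty-vector cells. With both genes summed the log2 fold was 0.58 (0.47 to 0.68), a 1.49-fold difference that ends its call at 1.5-fold and leaves 4 members there. MRPL49, likewise mitochondrial only, had 1381 counts in CBS cells and 825 in empty-vector cells, and its log2 fold was also 0.64 (0.52 to 0.77). Its exons overlap FAU and SYVN1 on the opposite strand over 9.16% and 11.6% of their length, and whether reads were assigned by strand is not given in the sources used here. MRPL21 was at 0.60 (0.45 to 0.76), MRPL33 at 0.57 (0.31 to 0.87) and MRPL15 at 0.57 (0.41 to 0.74), all with bacterial counterparts. MRPL33 shares 21.1% of its exon bases with BRE on the same strand. MRPL12, the stalk protein that recruits translation factors in bacteria, had 2050 counts in CBS cells and 1304 in empty-vector cells and a log2 fold of 0.55 (0.45 to 0.66). It shares 68.2% of its exon bases with ENSG00000262660, a gene of the same strand with 219 counts in CBS cells and 177 in empty-vector cells.

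In the small subunit MRPS27, a pentatricopeptide repeat protein found only in mitochondria, was highest. It had 2813 counts in CBS cells and 1716 in empty-vector cells, and a log2 fold of 0.61 (0.53 to 0.70). MRPS23, also mitochondrial only, had 782 counts in CBS cells and 492 in empty-vector cells, and a log2 fold of 0.57 (0.41 to 0.74). MRPS12, the counterpart of the bacterial protein at the decoding centre, was at 0.46 (0.32 to 0.60), and it shares 16.3% of its exon bases with SARS2 on the opposite strand. MRPS15, the most abundant small-subunit transcript by TPM, had 188.4 TPM with CBS and 142.7 TPM with the empty vector, and a log2 fold of 0.29 (0.20 to 0.37).

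The 3 related proteins of the S18 family take different places in the human ribosome. MRPS18C is the counterpart of bacterial S18 in the small subunit, MRPS18B sits elsewhere in the small subunit, and MRPS18A belongs to the large subunit. Their log2 folds were close, at 0.42 (0.24 to 0.62) for MRPS18C, 0.41 (0.31 to 0.52) for MRPS18B and 0.36 (0.24 to 0.48) for MRPS18A, and the intervals overlapped. MRPS18C shares 40.2% of its exon bases with FAM175A on the opposite strand, which had 124 counts in CBS cells and 99 in empty-vector cells. MRPS18A shares 47.0% with RSPH9, also on the opposite strand, which had 20 counts in CBS cells and 15 in empty-vector cells. By TPM, MRPS18A had 102.3 with CBS and 71.9 with the empty vector. MRPS18B had 85.2 TPM with CBS and 58.8 with the empty vector, and MRPS18C had 94.5 TPM with CBS and 57.4 with the empty vector.

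MRPL41 was the member whose interval lay below a ratio of 1. This large-subunit protein, found only in mitochondria, lies on chromosome 9 (137551199 to 137552555). It had 693 counts in CBS cells and 823 in empty-vector cells, a log2 fold of -0.34 (-0.49 to -0.20), and its level was 39.3 TPM with CBS and 46.0 TPM with the empty vector. Its transcript had the highest GC content of the family, 71.9% beside a family median of 47.6%, and log2 folds over all genes declined with GC content (Spearman's rho -0.28 over 13225 genes, which share both libraries). Once that trend and the one on length were taken out, its log2 fold was 0.08. The part of GC content in its lower level was not tested. For the family as a whole the same removal left a median of 0.33, and across the 77 members the fold and GC content had a rho of -0.07.

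Some members had small positive folds. MRPL28 at 0.10 (0.00 to 0.19), MRPS35 at 0.15 (0.02 to 0.28), MRPS22 at 0.19 (0.06 to 0.32), MRPL52 at 0.20 (0.06 to 0.34), MRPL55 at 0.23 (0.03 to 0.43) and MRPL36 at 0.23 (0.06 to 0.40) had intervals above 1. The call of MRPL28 ended with DESeq2 size factors (-0.00 to 0.19), where 61 members had an interval above 1. With genes of at least 100 counts alone its call and that of MRPS35 ended, and 60 members had one. MRPL28 shares 7.33% of its exon bases with TMEM8A on the same strand. The 14 members whose interval held 1 were MRPS14, MRPL23, MRPS5, MRPL42, MRPL43, MRPL54, MRPS36, MRPS6, MRPS21, MRPS24, MRPL2, MRPL53, MRPL48 and MRPL10. Their log2 folds ran between -0.07 in MRPL10 and 0.15 in MRPS14, with MRPL53 and MRPL48 also slightly negative, and for them no difference was detectable at this depth. MRPS36 has since been described as a subunit of the oxoglutarate dehydrogenase complex. An interval wholly above the family median was found for 14 members, and 18 had one wholly below it. These intervals cover counting error only, so whether members differ beyond the spread between cultures could not be tested.

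Counts and TPM differed for a few genes, singled out here after their values were seen. MRPL55 had 478 counts in CBS cells and 381 in empty-vector cells, but 52.2 TPM with CBS and 53.6 TPM with the empty vector. MRPL52 had a log2 fold of 0.20 in counts and 0.55 in log2(TPM + 1), and MRPS18C one of 0.42 in counts and 0.71 in log2(TPM + 1). These 3 were the members in which both measures differed by at least 0.25, and the median difference was 0.11 in the family as over all genes. None differed by 0.5.

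Reads shared with other genes could have touched some members. Expected counts were not whole in at least 1 library for 43 members. Of the 34 with whole counts in both, 29 had an interval above 1 (85.3%, beside 31.6% of all genes). Exons of 26 members overlapped a gene of at least 100 counts, and 16 shared at least 5% of their exon bases with one. Over the other 61 members, 50 intervals lay above 1 (82.0%, beside 31.6% of all genes) and the median was 0.31. The table also held 73 pseudogene entries named after MRPL or MRPS genes, of which 11 had any count, and they summed to 197 counts in CBS cells and 204 in empty-vector cells.

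Other genes of mitochondrial translation had intervals above 1 more often than below it. Over all genes the shares were 31.6% above and 31.1% below. The 6 mitochondrial ribosomal proteins with other symbols had a median log2 fold of 0.24, and all 6 intervals lay above 1. Among them ICT1, a peptidyl-tRNA hydrolase built into the large subunit and now named MRPL58, had 725 counts in CBS cells and 441 in empty-vector cells and a log2 fold of 0.61 (0.45 to 0.79). PTCD3, a pentatricopeptide repeat protein of the small subunit, was at 0.42 (0.29 to 0.55), and DAP3, its GTP-binding subunit, was at 0.21 (0.10 to 0.32). Of 33 factors that assemble or process the ribosome, 20 had an interval above 1 (60.6%) and 3 below (9.09%), with a median of 0.25. MPV17L2, an assembly factor, had 405 counts in CBS cells and 177 in empty-vector cells and a log2 fold of 1.08 (0.84 to 1.36). C1QBP, a matrix protein that binds the ribosome, was at 0.73 (0.66 to 0.81), and the helicase DDX28 at 0.58 (0.32 to 0.86). Of 20 translation factors, 14 intervals lay above 1 (70.0%) and 1 below (5.00%), with a median of 0.21. The elongation factor TSFM was at 0.70 (0.51 to 0.90), LRPPRC, which stabilizes mitochondrial messenger RNA, at 0.61 (0.54 to 0.69), and GFM1, which moves the ribosome along, at 0.55 (0.42 to 0.67).

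Of 19 mitochondrial aminoacyl-tRNA synthetases, 15 had an interval above 1 (78.9%, beside 31.6% of all genes) and 2 below (10.5%, beside 31.1%), with a median of 0.36, and MARS2, which charges the methionine transfer RNA, was furthest at 0.96 (0.74 to 1.23). Of 27 genes of protein import, 20 lay above (74.1%) and 1 below (3.70%), with a median of 0.34. CHCHD4, which oxidizes proteins arriving between the membranes, had 542 counts in CBS cells and 299 in empty-vector cells and a log2 fold of 0.75 (0.55 to 0.97). TIMM17A, part of the channel of the inner membrane, was at 0.63 (0.47 to 0.80). Of 14 regulators of mitochondrial biogenesis, 7 had an interval above 1 (50%, beside 31.6% of all genes) and 1 below (7.14%, beside 31.1%). For 6 it held 1, and the median was 0.20. PPARGC1B, a coactivator, was at 1.22 (0.88 to 1.68) with 189 counts in CBS cells and 73 in empty-vector cells. Its level was low, at 1.44 TPM with CBS and 0.67 TPM with the empty vector, and its fold in log2(TPM + 1) was 0.55. The transcription factor TFB2M was at 0.82 (0.59 to 1.08) and TFAM, which packages mitochondrial DNA, was at 0.56 (0.43 to 0.68). Among factors known to bind the searched cores, NRF1 was at 0.03 (-0.22 to 0.28), GABPA at -0.05 (-0.21 to 0.12) and YY1 at -0.04 (-0.12 to 0.04), and each of these intervals held 0. GABPB1 was at -0.07 (-0.24 to 0.10) and GABPB2 at 0.28 (0.03 to 0.55), both partners of GABPA, while MYC, which binds the E-box, was at -0.24 (-0.29 to -0.18). Other ETS factors were not analysed here.

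**Figure D3:**
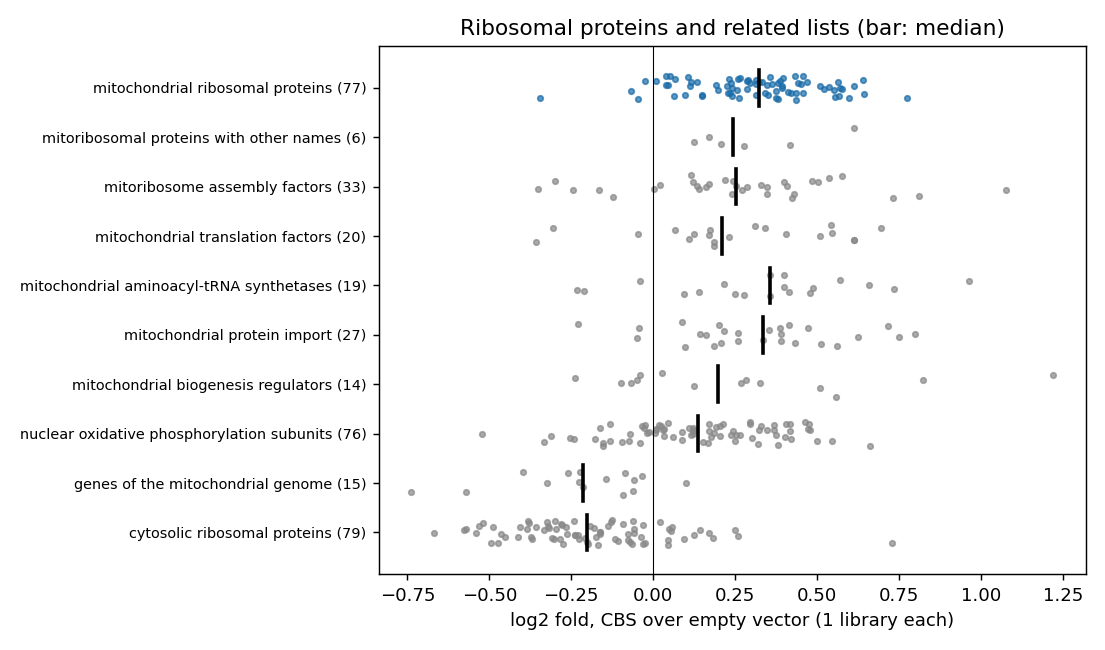
Log2 fold (CBS over empty vector, x axis) of each gene above the filter in the ribosomal protein family and in 9 related lists (rows, number of genes in brackets), 1 library per group, with the median as a black bar. The medians of lists of mitochondrial translation lie between 0.21 and 0.36, that of cytosolic ribosomal proteins is -0.20 and that of the mitochondrial genome is -0.22.

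The RNA that these proteins assemble on was lower in the CBS library. MT-RNR1, the ribosomal RNA of the small subunit, had 15833 counts in CBS cells and 21986 in empty-vector cells and a log2 fold of -0.57 (-0.60 to -0.54). MT-RNR2, that of the large subunit, had 112137 counts in CBS cells and 174696 in empty-vector cells and a log2 fold of -0.74 (-0.75 to -0.73). Whether and how ribosomal RNA was removed from the libraries is not given in the sources used here, and its part in these values was not tested. Over the 15 genes of the mitochondrial genome that were listed here the median was -0.22, with 14 intervals below 1 (93.3%, beside 31.1% of all genes). MT-CO1, the exception, was at 0.10 (0.09 to 0.11). In log2(TPM + 1), where the median of all genes was 0.09, the median of these 15 genes was -0.10, with MT-RNR1 at -0.45 and MT-RNR2 at -0.62.

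Cytosolic ribosomal proteins, which build the ribosome of the main cell body, stood on the other side of a ratio of 1 from the mitochondrial ones. Of 79 such genes, 63 had an interval below 1 (79.7%, beside 31.1% of all genes) and 11 above (13.9%, beside 31.6%), and the median log2 fold was -0.20. RPS19 had 7767 counts in CBS cells and 11546 in empty-vector cells and a log2 fold of -0.67 (-0.71 to -0.63), while RPS26 had 1551 counts in CBS cells and 872 in empty-vector cells and a log2 fold of 0.73 (0.61 to 0.85). Both have pseudogenes of near-identical sequence, so their counts are less certain. In log2(TPM + 1) the medians were -0.09 for the cytosolic and 0.43 for the mitochondrial family, and after the GC and length trend was taken out they were -0.22 and 0.33. Nuclear subunits of the oxidative phosphorylation complexes lay between, with a median of 0.14 over 76 genes, 39 intervals above 1 (51.3%) and 11 below (14.5%). Its members went both ways, with NDUFV2, of the electron input module of complex I, at 0.66 (0.56 to 0.76) and NDUFA13, another subunit of that complex, at -0.52 (-0.66 to -0.39). These medians describe 2 libraries and were not tested against each other.

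**Figure D4:**
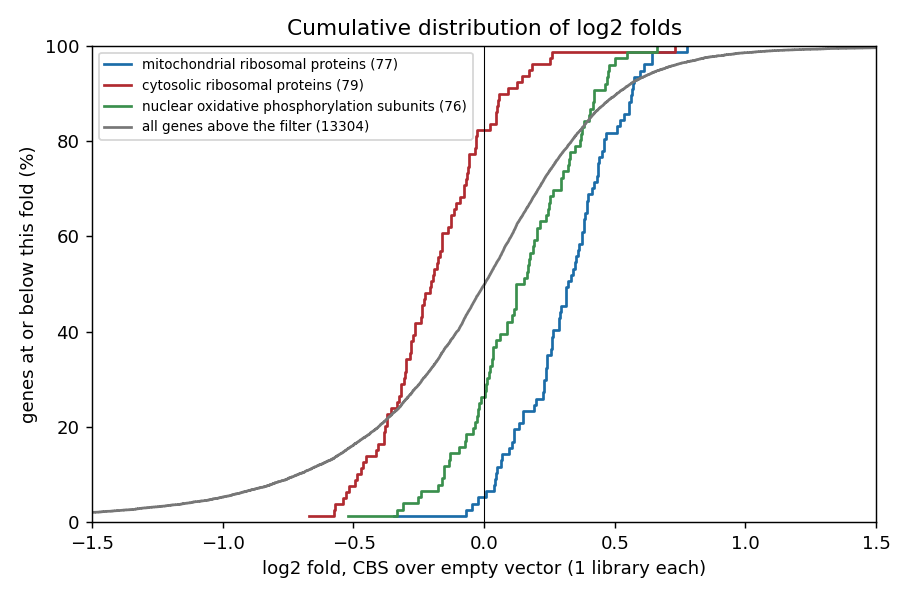
Share of genes (y axis, %) at or below each log2 fold (CBS over empty vector, x axis, shown from -1.5 to 1.5) for 4 sets of genes, 1 library per group. The curve of the 77 mitochondrial ribosomal protein genes crosses its median at 0.32, that of the nuclear oxidative phosphorylation subunits at 0.14, that of all genes at 0.00 and that of the cytosolic ribosomal proteins at -0.20.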

How the data were processed

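RNA was sequenced on the DNBseq platform, per the labels' protocols. The submitters' processing notes list RSEM 1.3.2, STAR 2.6.1d, Trimmomatic 0.39 and the GRCh38 build, with no role or order. Strandedness and the annotation release are not given in the sources used here. Gene values were deposited by the authors in the form of expected counts, which can be fractional and were rounded here. The authors also deposited TPM values, used for levels between genes and, as log2(TPM + 1), as an alternative.

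No model was fitted. TMM factors (edgeR 4.0.16, R 4.3.3) were 1.03 for CBS and 0.975 for the empty vector. DESeq2 1.42.0 gave size factors as an alternative. Calls used the exact 95% interval, alone or with a fold of 1.5 or 2. PCR-amplified reads are not independent molecules, so the intervals may be too narrow. The longest GENCODE 29 transcript gave each gene's GC content and length (99.4% of genes above the filter matched), and a lowess fit of span 0.3 in statsmodels 0.14.6 took out their trend. Intervals and folds were checked on counts simulated with counting error alone, which is the error the intervals assume. That check does not bear on PCR amplification, spread between cultures or the scaling. Promoters came from RefSeq on GRCh38.p14, and motif cores were shortened after longer forms had been searched.

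Members, lists and the rule for named genes were chosen with earlier results of these data known. The rule takes the 8 highest and 8 lowest folds that reach 100 counts in 1 library with an interval excluding 1, the 5 highest and 3 lowest TPM, the MRPS18 genes, members whose folds in counts and TPM differ by at least 0.5, and up to 4 genes per related list. Others named were chosen after their values were seen. Calculations used Python 3.11.15, pandas 2.3.3 and scipy 1.17.1.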

Additional observations from a re-analysis of the deposited data

How the results depend on the processing

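No paired analysis was possible because each group held 1 library. The family median kept its direction under every alternative run, between 0.29 and 0.43 on the log2 scale. The number of members at least 1.5-fold higher, 5 in the main setting, was 13 with plain library totals, 16 in log2(TPM + 1), 11 without the filter on low counts, 9 with the GC and length trend removed, 39 at the lower fold threshold tried (with 1 at least as much lower) and 0 at 2-fold. The median log2 fold of all genes was 0.00 in the main setting, 0.07 with plain library totals and 0.09 in log2(TPM + 1). Apart from the 2-fold rule, these alternative counts have no share of all genes beside them, so they do not set the family apart. The summed log2 fold of 0.33 was 0.40 with plain totals and 0.43 in TPM. Plain totals gave medians of -0.14 for the mitochondrial genome and -0.13 for cytosolic ribosomal proteins. TPM gave -0.10 and -0.0899 for these lists and 0.26 for oxidative phosphorylation, and CBS was at 3.06. The mitochondrial genome was at -0.18 without the filter and at -0.24 with genes of at least 100 counts. Members with whole counts, an alternative chosen after seeing the data like those on exon overlap and on MRPL38, numbered 34, so 29 intervals above 1 reflect the smaller set. The log2 fold of MRPL55 was -0.0378 in TPM and that of MRPL41 was 0.0801 with the GC and length trend removed; the cause was not tested. Each group's spread between cultures is unknown.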

Other observations

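Among the members, 19 start within 1000 bases of a protein-coding gene on the opposite strand (or overlap its start by up to 200 bases), and 16 of them had such a neighbour above the filter. MRPL46, of the large subunit, and MRPS11, of the small, face each other on chromosome 15 with 34 bases between their starts. MRPL46 had 394 counts in CBS cells and 249 in empty-vector cells, and a log2 fold of 0.55 (0.33 to 0.80). MRPS11 had 840 counts in CBS cells and 595 in empty-vector cells, and a log2 fold of 0.40 (0.25 to 0.55). Of the 14 neighbours that are not members, 9 had an interval above a ratio of 1 and 3 below, beside 31.6% and 31.1% of all genes, with a median log2 fold of 0.31. The chaperonin subunit TCP1, beside MRPL18, had 6692 counts in CBS cells and 4357 in empty-vector cells, and a log2 fold of 0.52 (0.47 to 0.58). NDUFB5 beside MRPL47 was at 0.33 (0.19 to 0.48) and NDUFS6 beside MRPL36 at 0.29 (0.18 to 0.41), both subunits of respiratory complex I. The neighbours on the low side were ZNF189 beside MRPL50 at -0.37 (-0.70 to -0.06), APBA3 beside MRPL54 at -0.41 (-0.62 to -0.21) and EME2 beside MRPS34 at -0.39 (-0.58 to -0.20). These genes were named after their values were seen.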
